A study of Mus musculus with 12 samples.

Results

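The clustered protocadherin genes were taken as the rows of the deposited gene table whose symbol starts with Pcdha, Pcdhb or Pcdhg followed by a number, or by a, b or c and a number. This gave 24 of 26061 genes, with 2 rows of the alpha cluster, 21 of the beta cluster and 1 of the gamma cluster. RNA-seq had been made from 12 libraries of Tet2 KO mouse embryonic stem cells (ESCs), 3 for each of 4 groups. Every library came from stable lines in which a PiggyBac transposon carried either WT TET2 or a catalytic mutant of TET2, and every library was infected with an shRNA against Setdb1. Each rescue line was grown without feeders in 2i medium (naïve) or in serum (primed), both with LIF. No library with a control shRNA was used here, so the comparisons are between media and between rescue lines under the same shRNA, and the effect of Setdb1 knockdown itself is not measured. The sources used here do not say whether each rescue line was a clone or a pool, so the construct and other differences between these lines cannot be told apart. They also do not say whether replicates were separate cultures, so p-values measure only the spread between these libraries.

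Protocadherins of the clusters are cadherin-like cell surface proteins that bind the same isoform on another cell, and neurons use the combination they express as an identity tag for dendrite self-avoidance and axon arrangement. In the alpha and gamma clusters each variable exon has its own promoter and is spliced to shared constant exons that encode the cytoplasmic tail, whereas beta genes mostly stand as single exons with their own promoters. Promoter choice depends on looping by CTCF and cohesin, and DNA methylation, SMCHD1 and SETDB1 are known to act on the clusters.

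The members lie on chromosome 18 of mm9, on the plus strand. In the annotation used here the alpha rows spanned positions 37089939 to 37347311, the beta rows 37424652 to 37681073 and the gamma row 37833989 to 38001527. The gene model named Pcdha11 covered the alpha cluster from end to end, with 10 transcripts from 9 separate first exons, and 9 of the transcripts were joined to the same 3 constant exons. The model named Pcdhgc5 covered the gamma cluster in the same way, with 10 transcripts, 9 separate first exons and 9 transcripts joined to all 3 constant exons. Pcdha3 was a separate model of 2 exons at positions 37105801 to 37108685, without the constant exons. RefSeq (GRCm38.p6, used for names only) lists 58 genes in the clusters, 14 alpha, 22 beta and 22 gamma, and 24 of them had a row. The annotation with which the authors counted is not given in the sources used here. If it had these models, the Pcdha11 and Pcdhgc5 rows hold the reads of nearly a whole cluster each, and they are described below as the alpha row and the gamma row. The C-type genes Pcdhac1, Pcdhac2, Pcdhgc3 and Pcdhgc4 were not analysed here as rows of their own, and choice among variable exons cannot be read from these values.

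Depth came from inverting the variance-stabilising transformation of the deposited log2-scale values, which returned whole reads for 100% of the values (tolerance 0.02). The libraries held between 8066662 and 21335933 gene reads. Tet2 was read in every library, 5809 to 15874 times with WT and 1624 to 6829 times with mutant TET2 in naïve ESCs, and 19562 to 65641 against 4180 to 9289 times in primed ESCs. These counts do not separate the construct from the targeted locus, and since both lines carry a Tet2 construct they check neither the labels nor the knockout. The 6 ESC markers, among them Pou5f1, Nanog and Sox2, summed to between 4039 and 5842 RPM (reads of the gene when a library is scaled to 1000000 gene reads) in every group, and 0 of them were unread in any group. Of the 6 fibroblast markers 4 (Col1a2, Col3a1, Postn and Dcn) had 0 reads in every group, and the 6 summed to between 1.17 and 7.47 RPM. In these bulk libraries, fewer cells that express a gene and less RNA of it per cell cannot be told apart.

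Clustered protocadherin reads came almost whole from 2 rows. Over all libraries the 24 members had 9110 of 150476718 gene reads. The gamma row Pcdhgc5 held 96.0% of them with 8743 reads, and the alpha row Pcdha11 held 3.86% with 352 reads. The other 22 members shared 15 reads, all in beta genes. A total of 16 members (66.7%) had 0 reads in all 12 libraries, against 23.4% of all genes and 20.5% of protein-coding genes. A further 6 members had between 1 and 10 reads in total, and 2 were read in every library. Paralogous members are similar in sequence, and the authors' alignment placed each read with tied best hits at a randomly picked hit, so the few reads of a beta gene may belong to another.

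**Figure D1:**
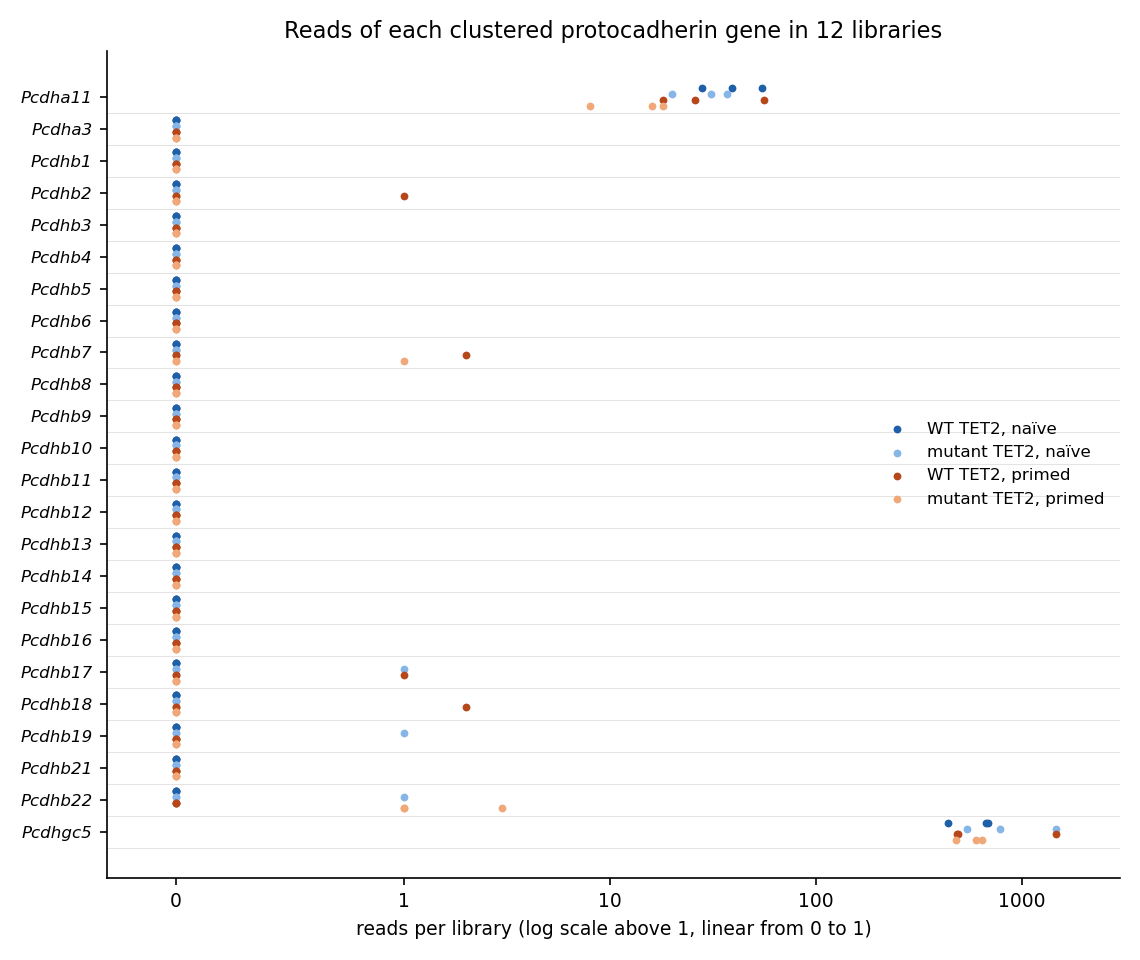
Reads of each of the 24 members in each of the 12 libraries, on an axis that is logarithmic above 1 read and linear from 0 to 1. Points are libraries, coloured by group. Pcdhgc5 lies between 438 and 1464 reads, Pcdha11 between 8 and 56, and no other member exceeds 3 reads in a library.

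Beta genes, whose proteins carry no shared constant tail, were close to unread. Of the 21 beta rows 15 had 0 reads in all libraries, and the 15 beta reads came from 6 libraries. Summed over the cluster, WT TET2 naïve libraries had 0, 0 and 0 reads in replicates 1, 2 and 3. A count of 0 in these libraries allows up to 0.243 to 0.297 RPM (3 reads of the library total). Mutant TET2 naïve libraries had 0, 0 and 3 beta reads, WT TET2 primed libraries 0, 3 and 3, and mutant TET2 primed libraries 1, 4 and 1. The deepest library of the series, WT TET2 primed replicate 3, was among those with 3. Both naïve groups together had beta reads in 1 of 6 libraries, the mutant TET2 replicate with the most gene reads, and the primed groups in 5 of 6.
Pcdhb22, at the downstream end of the beta cluster (37678007 to 37681073), had the most, with 1, 3 and 1 reads in mutant TET2 primed libraries, 1 in mutant TET2 naïve replicate 3 and 0 in the WT TET2 libraries. Pcdhb7 had 2 reads in WT TET2 primed replicate 3 and 1 in mutant TET2 primed replicate 2. Pcdhb17 had 1 read in WT TET2 primed replicate 2 and 1 in mutant TET2 naïve replicate 3. The largest count of Pcdhb18 was 2, and Pcdhb2 and Pcdhb19 had 1 read each. Sums of at most 4 reads per library lie near the limit that a count of 0 allows, so no fold is given for the beta cluster. The 21 beta rows and Pcdha3, which had 0 reads in every library, were below the filter for testing. With no filter Pcdhb22 was called lower in naïve ESCs with mutant TET2 (-0.41, limma, adjusted p = 0.0256), where 27.6% of 19954 genes were called.

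The gamma row was read in every library, at levels that overlapped between all 4 groups. Pcdhgc5 had 438, 673 and 685 reads in replicates 1, 2 and 3 of WT TET2 naïve ESCs, and 785, 543 and 1462 with mutant TET2. In primed ESCs it had 485, 490 and 1464 reads with WT and 479, 639 and 600 with mutant TET2. Its highest counts, 1462 and 1464, came from the deepest library of each of their groups. In naïve ESCs this made 51.6 ± 7.23 RPM in the WT line and 58.6 ± 12.4 in the mutant line (SD, n = 3 each), and in primed ESCs 59.6 ± 9.30 and 55.1 ± 2.60. The ranges of all 4 groups overlapped, with WT TET2 naïve replicate 1 lowest at 43.4 and mutant TET2 naïve replicate 3 highest at 72.4. Per kilobase of the model's 28980 exon bases, the group means were 1.78 to 2.06 RPKM (RPM per kilobase), above the median of 22010 protein-coding genes, which was 1.00 to 1.13. A transcript of the cluster is much shorter than the model, so this level understates the row's RNA. The row shares 1647 exon bases with Gm16882, a lincRNA on the opposite strand that had 10 to 59 reads per library. The library preparation kept no strand, so reads in that stretch may come from either gene.

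The alpha row was lower per kilobase, and its group means ranged from 1.32 to 3.49 RPM. Pcdha11 had 28, 55 and 39 reads in WT TET2 naïve replicates 1, 2 and 3, and 20, 37 and 31 with mutant TET2. In primed ESCs it had 18, 26 and 56 reads with WT TET2 and 8, 16 and 18 with mutant TET2. WT TET2 naïve ESCs were at 2.77, 4.45 and 3.25 RPM, and the mutant at 1.40, 3.31 and 1.53, so the groups overlapped through mutant replicate 2. The primed values were 2.23, 2.66 and 2.62 with WT TET2 and 0.891, 1.45 and 1.62 with mutant TET2, without overlap. The order of the group means was WT TET2 naïve (3.49 ± 0.864), WT TET2 primed (2.50 ± 0.236), mutant TET2 naïve (2.08 ± 1.07) and mutant TET2 primed (1.32 ± 0.380), all SD with n = 3. Neither WT TET2 primed and mutant TET2 naïve ESCs nor the mutant TET2 groups differed beyond their spread. The WT TET2 groups did not overlap, with 2.77 the lowest naïve and 2.66 the highest primed value, as held for 25.5% of genes tested. Their difference did not pass the test (limma, adjusted p = 0.259). Per kilobase of its 24688 exon bases the row was at 0.0535 to 0.141 RPKM, below the protein-coding median in every group. Gm10545, on the opposite strand, shares 2790 exon bases with the row and had 1 read over all libraries.

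**Figure D2:**
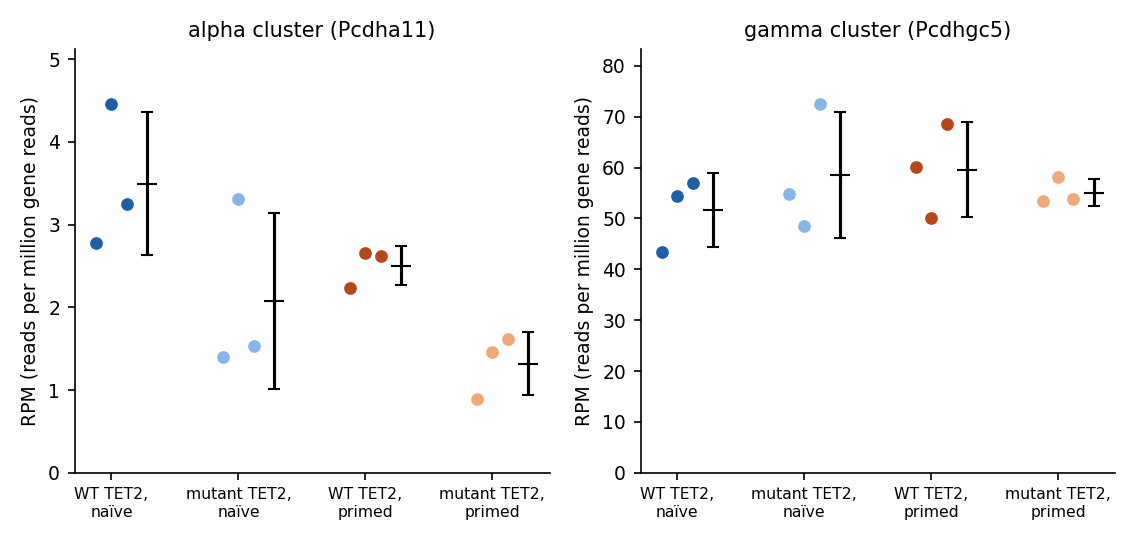
Levels in RPM of the alpha row (Pcdha11) and the gamma row (Pcdhgc5) by group. Points are libraries, the bar beside them is the mean and its whiskers the SD (n = 3). The alpha row ranges from 0.891 to 4.45 with the highest mean in WT TET2 naïve ESCs (3.49), whereas the gamma row ranges from 43.4 to 72.4 with all groups overlapping.

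The share of alpha reads among all clustered protocadherin reads gives the balance of the clusters within a library, whatever its depth. It was 6.01%, 7.55% and 5.39% in WT TET2 naïve replicates 1, 2 and 3, and 2.48%, 6.38% and 2.07% with mutant TET2. In primed ESCs it was 3.58%, 5.01% and 3.68% with WT TET2 and 1.64%, 2.43% and 2.91% with mutant TET2. All 3 WT TET2 primed libraries lay above all 3 mutant TET2 primed libraries. The 95% Clopper-Pearson intervals, which cover counting error only, reached from 2.79% to 4.75% for the deepest WT TET2 primed library and from 0.710% to 3.20% for the mutant TET2 primed library with the fewest alpha reads. These overlapped, as did those of WT TET2 primed replicate 1 (2.13% to 5.60%) and mutant TET2 primed replicate 3 (1.73% to 4.56%). That of WT TET2 primed replicate 2 (3.30% to 7.25%) did not overlap that of mutant TET2 primed replicate 1 (0.710% to 3.20%). By group the share was 6.32% ± 1.12 and 3.65% ± 2.38 in naïve ESCs with WT and mutant TET2, and 4.09% ± 0.799 and 2.33% ± 0.641 in primed ESCs (SD, n = 3 each).

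**Figure D3:**
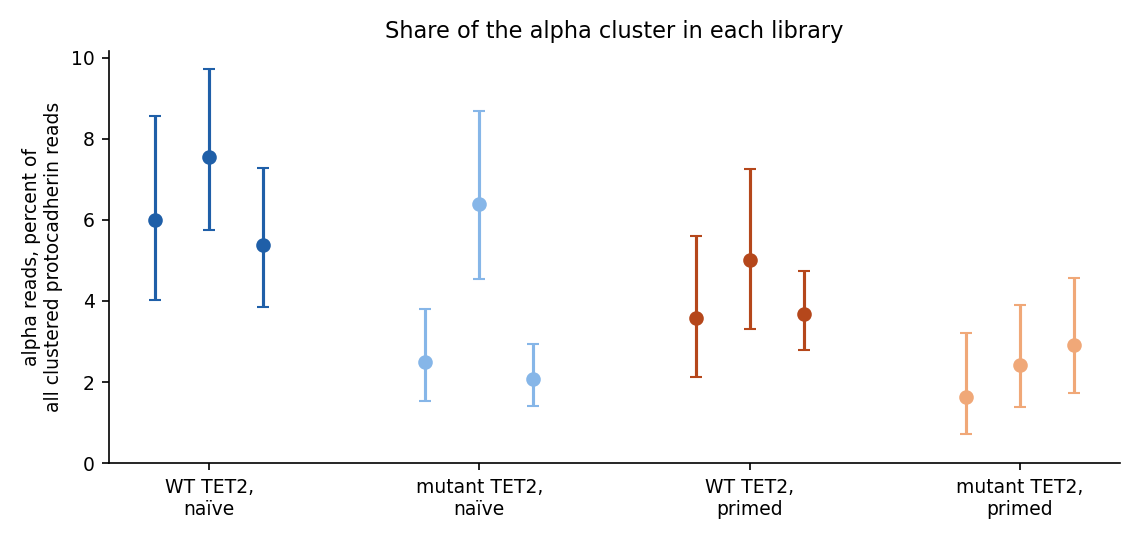
Alpha reads as a percentage of all clustered protocadherin reads in each library, by group, with 95% Clopper-Pearson intervals of counting error. The 3 WT TET2 naïve libraries lie between 5.39% and 7.55% and the 3 mutant TET2 primed libraries between 1.64% and 2.91%.

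The rescue lines were compared to ask whether the level of the clusters differs between WT and catalytic mutant TET2, lines that also differ in Tet2 RNA. The tests were made with limma on the deposited values of 14185 genes whose mean over the 12 libraries lay at least 1 above the value of 0 reads, which is 3.81, and a gene was called at an adjusted p under 0.05. Of the members 2 passed this filter, the alpha and the gamma row, and 22 did not. In naïve ESCs the log2-scale value of the alpha row was 6.06 ± 0.23 in the WT line and 5.57 ± 0.40 in the mutant line (SD, n = 3 each). The difference was 0.49 (standard error 0.21, 95% interval 0.04 to 0.94), higher in 3 of 3 same-numbered pairs, and it did not pass the test (limma, adjusted p = 0.346). The primed values of this row were 5.74 ± 0.07 and 5.26 ± 0.19, 0.48 apart on the log2 scale (limma, standard error 0.21 and adjusted p = 0.289), without overlap. The deposited scale compresses genes with few reads. In RPM, the WT mean was 1.68 times the mutant mean in naïve and 1.90 times in primed ESCs, and limma-voom on the recovered reads gave log2 differences of 0.93 and 0.88 (limma-voom, adjusted p = 0.294 and 0.310). By exact permutation of the library labels (two-sided, smallest possible p = 0.1 with 3 against 3), the alpha row had p = 0.2 in naïve and p = 0.1 in primed ESCs.
The gamma row was not called between the rescue lines. Its log2 difference was -0.15 (95% interval -0.51 to 0.21, limma, adjusted p = 0.727) in naïve and 0.06 (95% interval -0.30 to 0.42, limma, adjusted p = 0.897) in primed ESCs. These intervals hold differences of up to 0.51 on the log2 scale, so equal levels are not shown. In naïve ESCs 0 of the 2 tested members were called, where 0.0987% of all genes tested were, and in primed ESCs 0 of 2, where 0.254% were. Leaving out 1 library gave 5 to 22 genes called in naïve ESCs, against 14, and 12 to 82 in primed ESCs, against 36. The unadjusted p of the alpha row from limma was 0.0350 in naïve and 0.0393 in primed ESCs, and 13.3% and 16.2% of all genes tested had one under 0.05. The WT libraries all lay above the mutant ones for 8.78% of all genes tested in naïve and for 11.5% in primed ESCs, and this held for 0 of the 2 members in naïve and 1, the alpha row, in primed ESCs.

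Averaged over both media, a comparison that was added after the values were seen, the alpha row was 0.48 higher with WT than with mutant TET2 (standard error 0.15, 95% interval 0.16 to 0.80, limma, adjusted p = 0.0773). The share of all genes called in this comparison was 3.10%, and 0 of the 2 members were among them. Same-numbered naïve libraries of the lines deviated together over all genes, and the alpha row was called when the replicate number was a block (limma, adjusted p = 0.0232), where 11.9% of all genes were called. Same-numbered primed libraries, which this averaged call also uses, were not paired in this way (correlations of -0.07 to 0.19). The alpha row was also called without mutant TET2 primed replicate 3 (limma, adjusted p = 0.0467), where 1706 of the 14185 genes were. Leaving out any 1 library other than WT TET2 primed replicate 2 moved the count of 440 genes called by over 1.5 times, from 76 without WT TET2 primed replicate 1 to that 1706. Over all alternatives the adjusted p of the alpha row ranged from 0.0232 to 0.184. Limma-voom on the recovered reads gave it a log2 difference of 0.90 (limma-voom, adjusted p = 0.0693). An exact permutation test within each medium gave p = 0.01, where the smallest possible is 0.005. This p is not adjusted, and how many of all genes reach it was not computed. Limma gave 3328 of the 14185 genes an unadjusted p under 0.05 in this comparison. For the gamma row the averaged difference was -0.05 (95% interval -0.30 to 0.21, limma, adjusted p = 0.855).

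Naïve and primed ESCs were compared within each rescue line. The alpha row was 0.32 higher in naïve ESCs with WT TET2 on the log2 scale (standard error 0.21, 95% interval -0.13 to 0.77, limma, adjusted p = 0.259) and 0.30 higher with mutant TET2 (95% interval -0.15 to 0.75, limma, adjusted p = 0.284), so it passed the test in neither. In RPM, the naïve mean was 1.39 times the primed mean with WT TET2 and 1.58 times with mutant TET2. The gamma row differed by -0.15 with WT TET2 (95% interval -0.51 to 0.21, limma, adjusted p = 0.528) and by 0.06 with mutant TET2 (95% interval -0.30 to 0.42, limma, adjusted p = 0.818). The media differed widely otherwise, with 35.9% of all genes tested called with WT TET2 and 35.2% with mutant TET2, and 0 of the 2 members among them in either line. At an unadjusted p under 0.05, 0 of the 2 members passed in either line, against 45.7% of all genes with WT and 45.0% with mutant TET2. Limma-voom also called 0 members, and 5010 and 4923 genes in all. All naïve libraries lay above all primed libraries for 25.5% of genes tested with WT TET2 and 22.3% with mutant TET2. This held for 1 of the 2 members, the alpha row, with WT TET2, and for 0 with mutant TET2.
Averaged over both rescue lines, also added after the values were seen, the naïve minus primed difference was 0.31 for the alpha row (95% interval -0.01 to 0.63, limma, adjusted p = 0.0941) and -0.04 for the gamma row (limma, adjusted p = 0.780). An exact permutation test within each rescue line gave p = 0.045 for the alpha row and p = 0.71 for the gamma row, where the smallest possible is 0.005. These are not adjusted, and limma gave 8142 of 14185 genes an unadjusted p under 0.05 between the averaged media. Without mutant TET2 naïve replicate 2 the alpha difference was 0.20 (limma, adjusted p = 0.27). Of all genes tested 51.8% were called in this comparison, and 0 of the 2 members. The difference between rescue lines was not shown to depend on the medium. The interaction was 0.01 for the alpha row (95% interval -0.62 to 0.65, limma, adjusted p = 1.00) and -0.21 for the gamma row (95% interval -0.72 to 0.30, limma, adjusted p = 0.976). The interaction was called for 0% of all genes, while limma gave 489 genes and limma-voom 554 genes an unadjusted p under 0.05, and limma-voom also called 0. Leaving out 1 library gave 252 to 1355 genes an unadjusted p under 0.05 from limma. Without WT TET2 naïve replicate 1, the interaction was called for 1 gene, which was not a member.

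Among protocadherins outside the clusters, which are single genes elsewhere, Pcdh19 was lower in naïve ESCs. Of 12 such genes 2 had 0 reads in all libraries (Pcdh9 and Pcdh11x), and 2 passed the filter, Pcdh1 and Pcdh19. Pcdh19, a delta protocadherin encoded on the X chromosome, had 54, 70 and 80 reads in WT TET2 naïve replicates 1, 2 and 3 and 91, 39 and 101 with mutant TET2, against 99, 109 and 385 and 86, 114 and 163 in primed ESCs. It was at 5.89 ± 0.683 and 4.95 ± 1.43 RPM in naïve and at 13.8 ± 3.71 and 11.5 ± 2.72 in primed ESCs with WT and mutant TET2 (SD, n = 3 each). It was lower in naïve ESCs by a log2 difference of -0.93 with WT TET2 (limma, adjusted p = 0.00291) and -0.97 with mutant TET2 (limma, adjusted p = 0.00235), where 17.3% and 16.9% of all genes tested were called lower. Its naïve libraries all lay below its primed ones in either line, as held for 24.5% of all genes tested with WT and 21.2% with mutant TET2.
Pcdh1, on chromosome 18 downstream of the gamma cluster (38345569 to 38371707), had 10, 11 and 1 reads in WT TET2 naïve replicates 1, 2 and 3 and 40, 52 and 93 in primed ones. With mutant TET2 it had 9, 0 and 13 reads in naïve and 28, 65 and 30 in primed ESCs. The naïve minus primed difference was -1.59 with WT and -1.63 with mutant TET2 on the deposited scale, which compresses genes with few reads. In RPM, the naïve mean was 0.134 times the primed mean with WT TET2 and 0.109 times with mutant TET2. Pcdh1 passed the filter on low values only through its primed libraries, since its naïve means of 4.77 and 4.50 lay less than 1 above 3.81, so no test between media is given for it. In every alternative that tested it, Pcdh19 had an adjusted p from limma or limma-voom under 0.05 in both lines, and a stricter call that needs a difference above 1 leaves it out. Neither was called between the rescue lines, where Pcdh1 differed by 0.27 and 0.23 and Pcdh19 by 0.22 and 0.18 in naïve and primed ESCs (limma, adjusted p between 0.670 and 0.728). Of the genes too low to test, Pcdh17 had 1 read over the 6 naïve libraries, in mutant TET2 replicate 1, and 0 to 11 in primed ones. Pcdh10 had 0, 0 and 0 reads in WT TET2 naïve ESCs and 0, 4 and 9 in WT TET2 primed ESCs. With mutant TET2 it had 1, 0 and 3 reads in naïve and 0, 4 and 6 in primed ESCs, which overlap. Pcdh8 was read in every library, 1 to 7 times, with overlap between the media. Whether clustered and non-clustered genes responded differently to the medium was not tested.

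**Figure D4:**
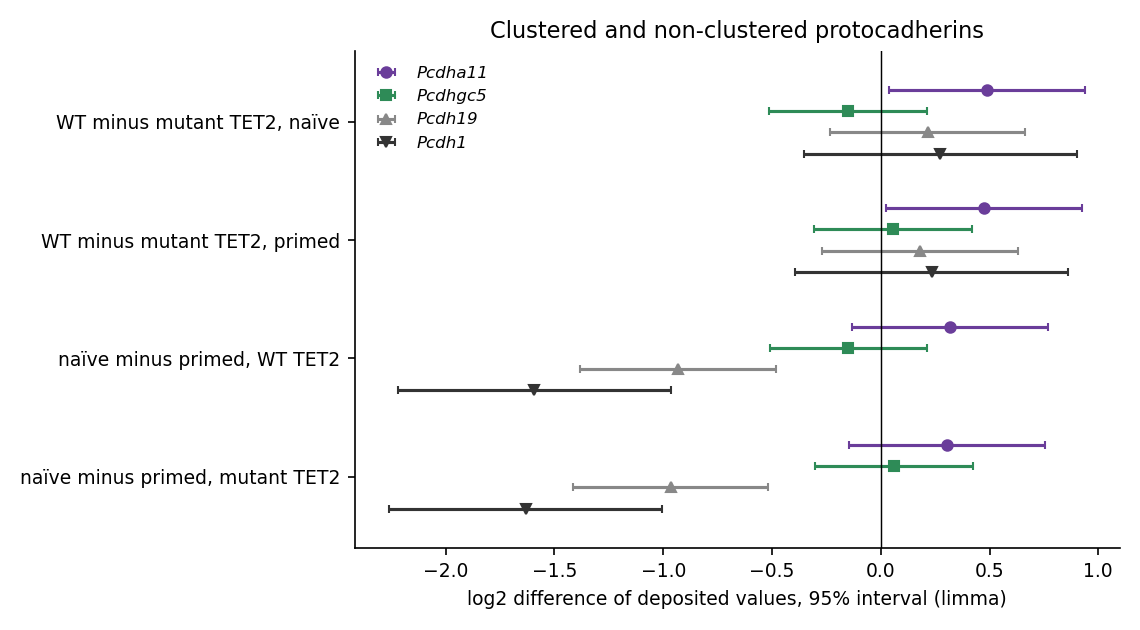
Log2 differences of the deposited values with 95% intervals from limma for the alpha row (Pcdha11), the gamma row (Pcdhgc5) and the non-clustered Pcdh19 and Pcdh1. Pcdh1 passed the filter only through its primed libraries, so its intervals between media are not read as a test. Between media Pcdh1 lies at -1.59 and -1.63 and Pcdh19 at -0.93 and -0.97, whereas all intervals of the gamma row include 0 and those of the alpha row lie above 0 only between rescue lines. The intervals are unadjusted, and the alpha row was called in none of these comparisons.

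Some cell type markers were called between media, where 35.9% of all genes tested were called with WT and 35.2% with mutant TET2. The 8 neural markers in the table summed to between 129 and 193 RPM in naïve and between 210 and 303 in primed libraries. Of the 4 that could be tested, Pax6 (-1.39 with WT and -1.37 with mutant TET2) and Tubb3 (-1.84 and -1.54) were lower and Ncam1 (1.22 and 1.51) higher in naïve ESCs in both lines (limma, adjusted p at most 0.000390 for each), and Dcx was at 0 in every group. Between the rescue lines 0 of the 4 were called. Among markers of other lists, Zfp42 was lower in naïve ESCs (-0.94 with WT and -1.29 with mutant TET2, limma, adjusted p = 0.0105 and 0.00129). Dab2 differed by -1.47 and -0.85, and passed the filter only through its primed libraries. Thy1 was higher in naïve ESCs (0.85 and 1.40, limma, adjusted p = 0.00474 and 9.34e-05), as was Nanog with WT TET2 (0.57, limma, adjusted p = 0.0357). Of the 6 ESC markers, 2 were called with WT and 1 with mutant TET2, and Thy1 was the 1 fibroblast marker tested. The 6 primitive endoderm markers summed to between 2.08 and 7.86 RPM over all libraries. Their part in the protocadherin values was not tested.

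Genes that flank the clusters or lie between them were compared in the order of the chromosome. Of the 12 with a row, 10 were tested. Taf7, a general transcription factor subunit between the beta and gamma clusters, had 1827 to 5081 reads per library, and its neighbour Slc25a2, a mitochondrial carrier, had 0 to 4. Taf7 was not called between media (-0.07 with WT and -0.36 with mutant TET2, limma, adjusted p = 0.792 and 0.111). Diap1, the actin-nucleating formin next to the gamma cluster, was lower in naïve ESCs by -0.84 with WT TET2 (limma, adjusted p = 0.000406) and -0.46 with mutant TET2 (limma, adjusted p = 0.0246). Rell2 was lower with WT TET2 (-0.74, limma, adjusted p = 0.0162) and Hars, a histidyl-tRNA synthetase upstream of the alpha cluster, with mutant TET2 (-0.39, limma, adjusted p = 0.0384). The list thus had 0 genes higher and 2 lower in naïve ESCs in each line, with medians of -0.15 and -0.23 against 0.01 and -0.01 over all genes tested. Of all genes tested 17.3% with WT and 16.9% with mutant TET2 were called lower, so 2 of 10 is near the background. Between the rescue lines 0 of the 10 were called in either medium, with medians of 0.02 in naïve and 0.03 in primed ESCs.

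**Figure D5:**
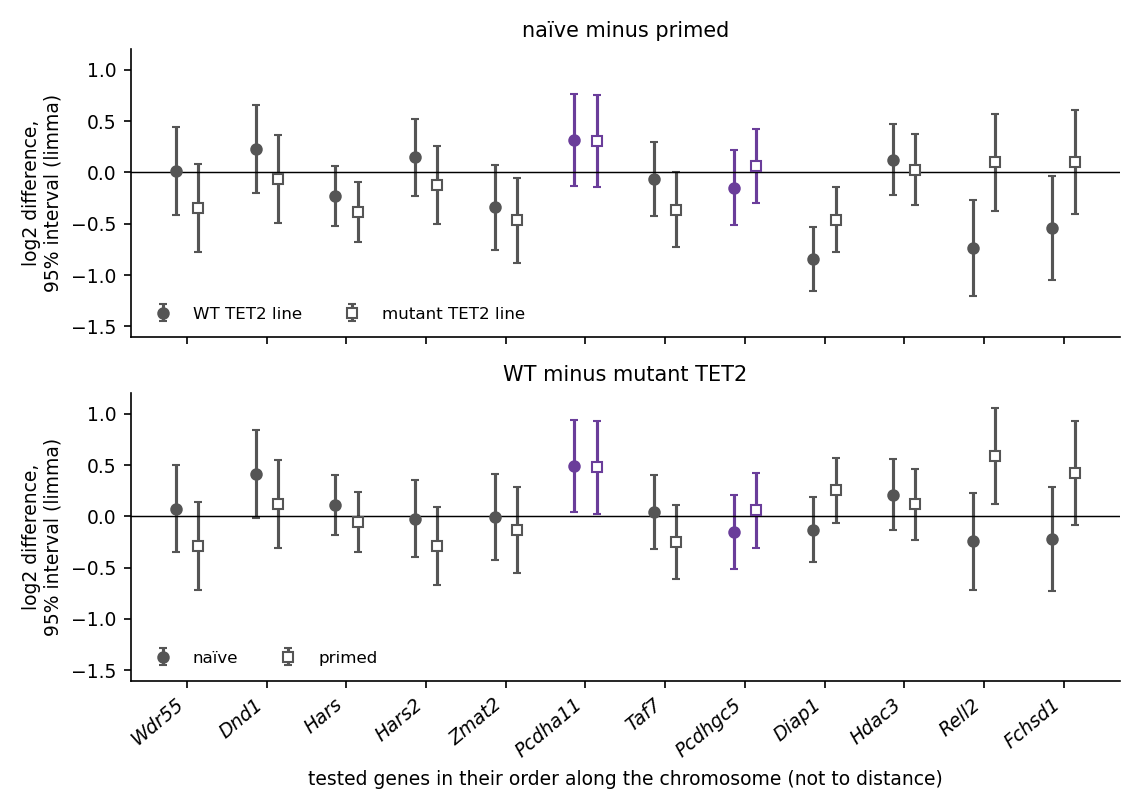
Log2 differences with 95% intervals from limma for the 10 tested flanking genes (grey) and the alpha and gamma rows (purple), in chromosome order and not to distance. The upper panel shows naïve minus primed in each rescue line and the lower panel WT minus mutant TET2 in each medium. Diap1 is lower in naïve ESCs in both lines (-0.84 and -0.46). In the lower panel the alpha row is the one plotted feature whose interval lies above 0 in both media. It was called in neither naïve nor primed ESCs (limma, adjusted p = 0.346 and 0.289). The intervals are unadjusted, and 13.3% (naïve) and 16.2% (primed) of all genes tested had an unadjusted p from limma under 0.05.

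Among 20 genes of the silencing machinery that acts on the clusters, 7 were lower and 0 higher in naïve than in primed ESCs with WT TET2, and 9 lower and 0 higher with mutant TET2. The share of all genes called lower was 17.3% and 16.9%. The medians were -0.35 and -0.38, against 0.01 and -0.01 over all genes tested. The de novo DNA methyltransferases Dnmt3b (-2.21 and -2.45) and Dnmt3a (-0.91 and -1.30) were lower in naïve ESCs, as was their cofactor Dnmt3l (-5.18 and -5.17, limma, adjusted p at most 0.00153 for each of the 3 genes). Trim28, the corepressor that recruits SETDB1, was lower by -0.94 and -1.08 (limma, adjusted p = 0.000974 and 0.000341). Cbx1, Ehmt1 and Mbd1 were lower in both lines, and Cbx5 and Rest with mutant TET2. Smchd1, a structural maintenance protein known to repress the clusters, differed by 0.15 and 0.07, and Setdb1 by -0.45 and -0.42, and neither was called within a line (limma, adjusted p between 0.167 and 0.841). Averaged over both lines, the comparison added after the values were seen, 11 of the 20 genes were lower and 0 higher in naïve ESCs, where 25.4% of all genes were called lower. Those gained over the separate lines were Setdb1 (-0.44, limma, adjusted p = 0.0472) and Suv39h1 (-0.31, limma, adjusted p = 0.0215). A list of 13 architecture genes held Ctcf, cohesin with its loaders and release factors, and also Zfp143 and Wiz. Of these, 1 was lower in naïve ESCs with WT TET2 (Wiz, -0.68, limma, adjusted p = 0.0212) and 1 with mutant TET2 (Ctcf, -0.54, limma, adjusted p = 0.0132). The cohesin subunits Rad21, Smc1a and Smc3 were called in neither line. A count of 1 of 13 lower is below the 17.3% and 16.9% of all genes. Between the rescue lines 0 of the 13 and 0 of the 20 genes were called in either medium. Averaged over both media, where 3.10% of all genes were called, Atf7ip, a cofactor of SETDB1, was higher with WT TET2 (0.65, limma, adjusted p = 0.0478), and 0 of the 13 were called. Within each medium the medians of the 13 and the 20 were 0.41 and 0.30 in naïve and 0.25 and 0.24 in primed ESCs, against 0.00 and 0.01 over all genes tested.

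Among 15 intracellular partners and processing enzymes of the protocadherins, Adam10, the protease that sheds their ectodomain, was higher in naïve ESCs by 1.14 with WT and 1.11 with mutant TET2 (limma, adjusted p = 0.000757 and 0.00102). The kinase Ptk2b, which binds the alpha and gamma tails, was lower by -1.83 and -1.28, and the receptor kinase Ret by -1.78 and -1.21 (limma, adjusted p at most 0.000194 for both genes). Wasf2, of the WAVE complex, was lower with WT TET2 (-0.60, limma, adjusted p = 0.0194). The list thus had 1 higher and 3 lower with WT TET2 and 1 higher and 2 lower with mutant TET2, while Ptk2, Fyn, Axin1 and Nckap1 were called in neither line. These 4 and 3 of 15 genes stand beside 35.9% and 35.2% of all genes called in either direction. Between the rescue lines 0 of the 15 were called in either medium. Averaged over both media, added after the values were seen, Ptk2b was the 1 called, higher with WT TET2 (0.60, limma, adjusted p = 0.0383). In that comparison 3.10% of all genes were called. Of the 4 TET pathway genes, Tet2 was the 1 called between rescue lines, higher with WT TET2 by 2.16 in naïve and 1.84 in primed ESCs (limma, adjusted p = 0.0154 and 0.0297). Its level was also lower in 2i than in serum, by -1.55 with WT and -1.87 with mutant TET2 (limma, adjusted p = 0.00207 and 0.000515), and Tdg by -0.45 with mutant TET2 (limma, adjusted p = 0.0415). The part of the Tet2 level in the alpha values of the rescue lines was not tested.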

How the data were processed

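Poly(A)-selected RNA-seq of 12 libraries was used as deposited by the authors, who trimmed reads with Trim Galore 0.3.3, aligned them to mm9 with TopHat2 2.0.9, counted reads per gene and used DESeq2 to make variance-stabilised values on a log2 scale. The counting tool is not given in the sources used here. Libraries were grouped by their labels, and the repeat table was not used. The transformation was inverted to whole reads for depth, shares and limma-voom. Of 26061 genes 26036 were matched by name to GENCODE vM1 on mm9.

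Differences were tested in R 4.3.3 with limma 3.58.1, in one fit of 12 libraries and 4 group means with an intensity trend and Benjamini-Hochberg adjustment over 14185 genes. The fit was tested on simulated data. The authors ran DESeq2 on their counts, and limma was used here because the deposited unit is log2. Python 3.11.15, numpy 2.4.6, pandas 2.3.3, scipy 1.17.1 and matplotlib 3.10.9 made tables, exact tests and figures. Interval and floor widths are for 95% and 3 reads.

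The members and lists were chosen with earlier results of these data known. Named members are the C-type genes, the 5 with the highest mean in each cluster, called members and those with the largest differences, and list genes are those called and up to 4 others. The other genes named were chosen after their values were seen. Same-numbered libraries of the 2 lines had deviations from the group means that correlated by 0.300 to 0.586 in naïve ESCs, so the numbers pair these, and by -0.07 to 0.19 in primed ESCs, where they do not. Alternatives were other filters, no trend, 6 libraries alone, the block, centring, quantile normalization, limma-voom, a difference above 1 and each library left out.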

Additional observations from a re-analysis of the deposited data

How the results depend on the processing

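In the 5 comparisons without averaging, the count of 0 members called held in every alternative run, with 1 exception, and 6 libraries alone could not give the interaction. In WT minus mutant TET2 averaged over both media the alpha row was called under the block (adjusted p = 0.0232) and without mutant TET2 primed replicate 3 (adjusted p = 0.0467), both from limma. With no filter on low values, 1 member was called lower in naïve than in primed ESCs with mutant TET2. This was Pcdhb22 (-0.41, limma, adjusted p = 0.0256), which rests on 1 read against 1, 3 and 1. When the replicate number was a block (replicate block), 0 members were called in each comparison without averaging, and the alpha row had an adjusted p from limma of 0.150 in naïve and 0.138 in primed ESCs for WT minus mutant TET2. Over all alternatives these adjusted p-values ranged from 0.150 to 0.649 and from 0.138 to 0.661. Leaving out single libraries gave alpha differences between the lines of 0.36 to 0.72 (naïve) and 0.37 to 0.55 (primed). Naïve minus primed then ranged from 0.19 to 0.43 with WT TET2 and from 0.08, without mutant TET2 naïve replicate 2, to 0.43 with mutant TET2. The gamma row changed sign in naïve minus primed with mutant TET2 without mutant TET2 naïve replicate 3 (-0.08). It also did so in WT minus mutant in primed ESCs without WT TET2 primed replicate 3 (-0.02), and was called in none. Its other differences then ranged from -0.26 to -0.01 (WT minus mutant, naïve) and from -0.25 to -0.02 (naïve minus primed, WT TET2). Its averaged differences ranged from -0.10 to 0.02 between lines and from -0.11 to 0.02 between media. The alpha interaction ranged from -0.11 to 0.24. The alpha row holds 8 to 56 reads per library, so counting error limits it more than the gamma row, and 22 members are limited by a floor of 3 reads.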
